A study of Mus musculus with 10 samples.

Results

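The 9 genes Tfam, Tfb1m, Tfb2m, Polg, Polg2, Polrmt, Nrf1, Gabpa and Ssbp1 encode proteins that copy and transcribe mitochondrial DNA, or regulate the genes of those that do. They were examined in brown adipose tissue of wild-type mice and mice labelled as lacking SIRT3, a deacetylase of the mitochondrial matrix. Members were every probe set that the platform annotation gives to 1 of these genes alone, which came to 22 of 34945 single-gene probe sets. Where a gene had several probe sets, the brightest on average stood for it, so the 9 genes stand among 18194. The study comprised 10 arrays: 5 from WT mice (genotype WT) and 5 from mice of genotype SIRT3 KO. Per the labels, all were untreated littermates about 1 year old on a 129 background, and each array was taken as a separate mouse. The labels do not give the deleted part of Sirt3, whether the deletion is in every tissue, or the sex of the mice.

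Mitochondria carry their own small circular genome, which encodes core subunits of the respiratory chain together with the ribosomal and transfer RNAs needed to translate them. All proteins that maintain this genome come from the nucleus. TFAM packages the DNA into nucleoids and bends its promoters, where TFB2M and the RNA polymerase POLRMT start transcription; TFB1M instead methylates the small ribosomal RNA. POLG with its accessory subunit POLG2 replicates the genome, and SSBP1 coats the single strands. NRF1 and GABPA (also called NRF2 alpha) are nuclear transcription factors known to bind the promoters of many of these genes, aided by the coactivator PGC-1 alpha. Brown fat is densely packed with mitochondria, which burn fuel for heat.

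Promoter windows of all 9 genes were found in the RefSeq promoter table (build GRCm38.p6), from 250 bases before to 50 bases after each annotated start. They were searched on both strands for TGCGCANGC, the core of the NRF1 motif, and for CCGGAAGT, the ETS motif that GABPA binds. The motifs share no overlap in these windows. Of the 9 genes, 3 held either motif: Tfam and Polg each held 1 ETS motif, and Polrmt held 2 NRF1 motifs. Among all 32851 windows of the same length, 4.16% held the NRF1 motif, 3.89% the ETS motif and 7.71% either. The other 6 genes held neither of these exact strings, which says only that the letters are not in these windows. The 3 windows with a match are shown because Tfam, the polymerase of replication and the polymerase of transcription hold motifs of the 2 regulators measured on the same arrays. Each is written 5′ to 3′ on the strand of its gene, with the motif in capitals.
Tfam, chr10:71237995-71238294, minus strand: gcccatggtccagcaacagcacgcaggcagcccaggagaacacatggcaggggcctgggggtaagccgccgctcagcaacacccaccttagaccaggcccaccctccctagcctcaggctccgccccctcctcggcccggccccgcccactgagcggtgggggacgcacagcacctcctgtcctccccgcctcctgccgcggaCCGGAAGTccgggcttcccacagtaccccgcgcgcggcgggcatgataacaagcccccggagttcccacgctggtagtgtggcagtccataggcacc
Polg, chr7:79466224-79466523, minus strand: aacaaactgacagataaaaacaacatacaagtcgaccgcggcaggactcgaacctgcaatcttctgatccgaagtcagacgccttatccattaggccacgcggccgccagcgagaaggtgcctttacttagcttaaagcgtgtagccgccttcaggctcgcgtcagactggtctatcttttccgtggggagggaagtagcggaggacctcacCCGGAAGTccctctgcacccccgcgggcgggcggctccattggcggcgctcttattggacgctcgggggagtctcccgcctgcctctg
Polrmt, chr10:79746532-79746831, minus strand: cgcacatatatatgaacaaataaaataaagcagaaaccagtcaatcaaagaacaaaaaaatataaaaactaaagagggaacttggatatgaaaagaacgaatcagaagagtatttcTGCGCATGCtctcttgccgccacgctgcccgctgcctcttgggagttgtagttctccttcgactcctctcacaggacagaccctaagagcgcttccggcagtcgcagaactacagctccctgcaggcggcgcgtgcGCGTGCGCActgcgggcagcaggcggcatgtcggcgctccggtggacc
Counting the annotated start as 1 with no base 0, the ETS motif begins at -47 in Tfam and at -38 in Polg, and the NRF1 motifs of Polrmt begin at -134 and 3. A match is a description of the letters and not evidence of binding in this tissue. The windows of the 9 genes held between 46.3% and 77.0% G and C, against a median of 52.7% over all windows.

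Signals are log2 values made by RMA, which subtracts background, brings the arrays to 1 common distribution and combines the short probes of a set into 1 value. Array medians lay between 5.58 and 5.61, and pairwise correlations of arrays across probe sets between 0.988 and 0.997. The Sirt3 probe set was not lower in arrays labelled KO, at 10.32 ± 0.07 against 10.13 ± 0.10 in WT (SD, n = 5 each; exact two-sided permutation p = 0.016). The groups overlapped, and the limma adjusted p of Sirt3 over 18194 genes was 0.914. A probe set outside the deleted part checks nothing, and where it lies is not known here, so the labels were not checked and KO below means arrays labelled KO. Of the brown adipocyte markers, 10 of 11 were measured, and their list mean ran from 10.49 to 11.06 in WT and from 10.54 to 10.80 in KO arrays. Ucp1, the uncoupling protein, lay between 13.96 and 14.28 and Cidea between 14.15 and 14.23, while Prdm16 lay between 7.46 and 8.31 and Zic1, near the array medians, between 4.43 and 6.4. Elovl3 and Dio2 varied more, between 9.42 and 11.55 and between 8.65 and 11.32. Of the 10 measured, 8 had a lower mean in KO arrays and 2 a higher one, with 0 called. Of 20 skeletal muscle markers, 20 had a lower mean in KO arrays, and the mean of that list ran from 7.32 to 11.39 in WT and from 5.30 to 10.63 in KO arrays. Lowest were KO 3 (5.30), KO 1 (5.53) and WT 5 (7.32). For Pcx, a control transcript probed at both ends, the log2 signal at the 3′ end minus that at the 5′ end was lower in KO (2.88 ± 0.07) than in WT (3.25 ± 0.20; SD, n = 5 each) with no overlap (exact two-sided permutation p = 0.0079, adjusted p = 0.040 over 5 transcripts). In the other 4 transcripts it overlapped between the groups.

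No member passed the test between KO and WT arrays. Differences were fitted by limma over all 18194 genes and adjusted by Benjamini and Hochberg, and a gene with an adjusted p under 0.05 was called; 0 of the 9 members were called, against 0 genes (0.0%) overall. Of the 9 members, 8 had a mean below WT in KO arrays and Ssbp1 had a mean above it, where 56.1% of all genes lay below. The median of the members was -0.065 log2 units, against -0.013 over all genes. In 1 of 9 members, Tfb1m, the unadjusted p was under 0.05, where this held for 851 genes or 4.68%. The groups overlapped in all 9 members, and were apart in 0.627% of all genes. Differences ran from -0.20 (Polg2) to 0.04 (Ssbp1). Their adjusted p-values in limma lay between 0.914 and 0.993. In bulk tissue, fewer cells of a type and less RNA per cell cannot be told apart.

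**Figure D1:**
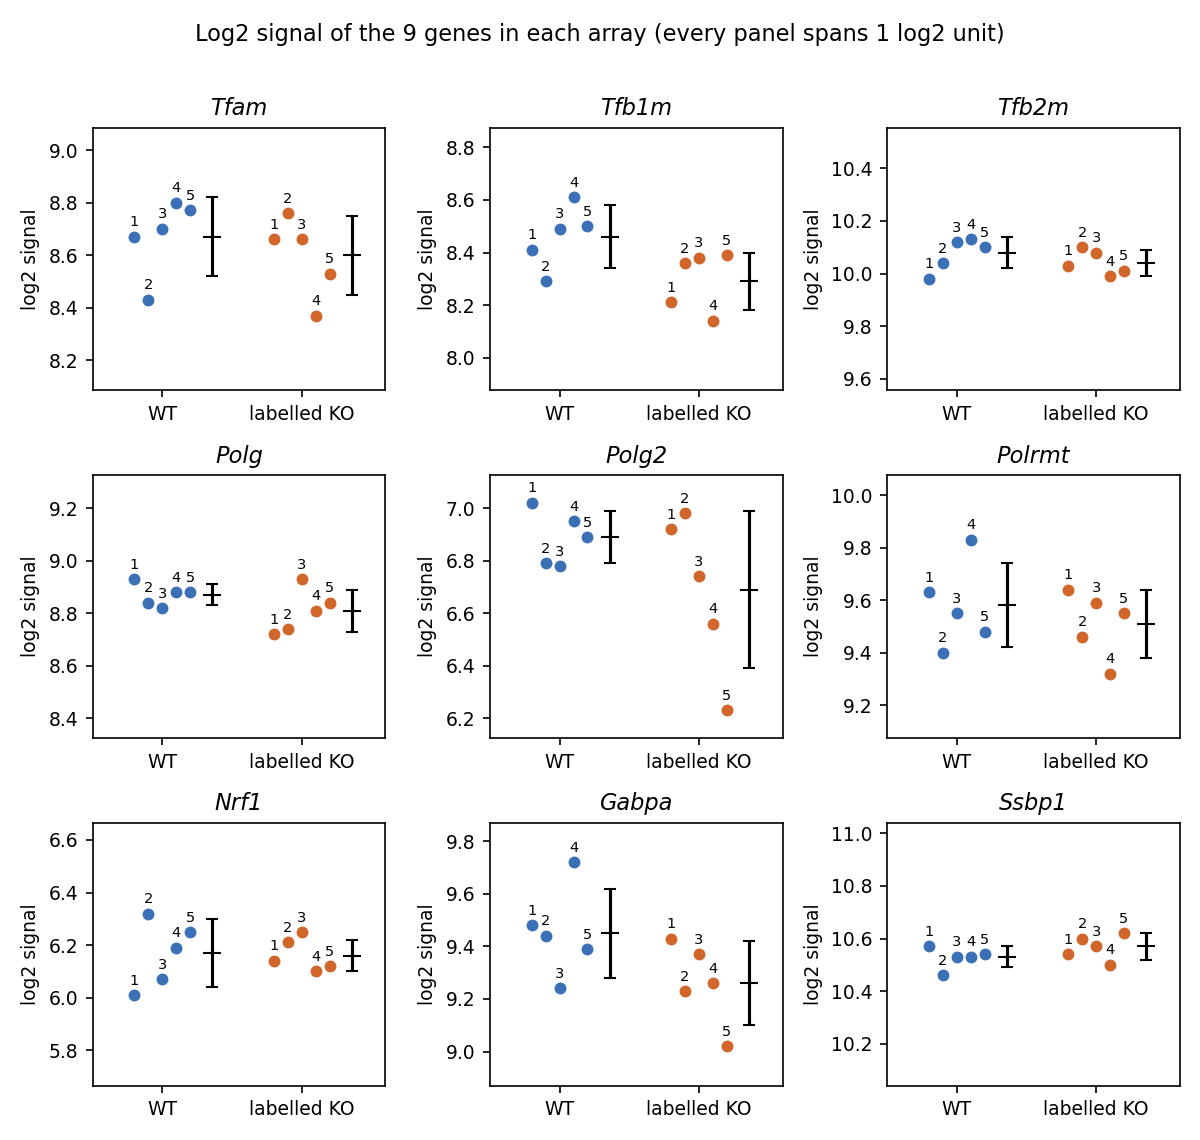
Log2 signal of the 9 genes (vertical axes, each spanning 1 log2 unit) in the 5 WT and 5 KO arrays; numbered points are arrays, and the black mark with its bar is the mean ± SD. The groups overlap in every panel, and KO 4 holds the lowest point for Tfam, Tfb1m and Polrmt.

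Of the nuclear regulators, Gabpa, the DNA-binding subunit of the ETS factor, gave 9.48, 9.44, 9.24, 9.72 and 9.39 in WT 1 to WT 5. In KO 1 to KO 5 it gave 9.43, 9.23, 9.37, 9.26 and 9.02. WT 4 was the highest array and KO 5 the lowest, and the other 8 arrays shared 1 range. The difference was -0.19 ± 0.097 (SE; 95% confidence interval -0.40 to 0.022; limma adjusted p = 0.914), with 5 of 5 KO arrays below the WT mean of 9.45. The share of all genes with this order was not counted. The second Gabpa probe set gave -0.14 ± 0.071. Without WT 4 the difference of Gabpa was -0.125, and without KO 5 it was -0.131.

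Nrf1, the other regulator, was dimmer. Its signals were 6.01, 6.32, 6.07, 6.19 and 6.25 in WT mice 1 to 5, and 6.14, 6.21, 6.25, 6.10 and 6.12 in KO mice 1 to 5. KO arrays lay wholly inside the WT range. The difference was -0.004 ± 0.067 (SE; interval -0.15 to 0.14; limma adjusted p = 0.993). The 3 further probe sets gave 0.10, -0.023 and 0.074, so the sign of Nrf1 has no settled direction here, and it turned under 9 of 20 alternatives. Some of those 20 cannot change a difference by their design.

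Tfam, the packaging protein and transcription activator, gave 8.67, 8.43, 8.70, 8.80 and 8.77 in WT 1 to WT 5 and 8.66, 8.76, 8.66, 8.37 and 8.53 in KO 1 to KO 5. WT 2 and KO 4 were the low arrays of their groups, and KO 1, KO 2 and KO 3 lay between 8.66 and 8.76, among the WT arrays. The means were 8.67 ± 0.15 in WT and 8.60 ± 0.15 in KO (SD, n = 5 each), a difference of -0.076 ± 0.088 (SE; interval -0.27 to 0.12; limma adjusted p = 0.938). The second, dimmer probe set of Tfam, with a mean of 6.36, gave 0.036 ± 0.060. The difference was -0.020 without KO 4, -0.045 without WT 4 and -0.14 without WT 2.

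Among the transcription proteins, Tfb1m, which modifies the mitochondrial ribosomal RNA, lay lowest relative to its error. It gave 8.41, 8.29, 8.49, 8.61 and 8.50 in WT 1 to WT 5, and 8.21, 8.36, 8.38, 8.14 and 8.39 in KO 1 to KO 5. All 5 KO arrays lay below the WT median, while WT 2 lay inside the KO range. All 5 also lay below the WT median for Gabpa and for Tfb2m, where the difference was only -0.031. The share of all genes with this order was not counted. The difference of Tfb1m was -0.16 ± 0.074 (SE; interval -0.33 to -0.003), with an unadjusted limma p of 0.0469 and an adjusted p of 0.914. This probe set carries the suffix _s_at, which the maker gives to sets that match several transcripts; the other Tfb1m probe set gave -0.097 ± 0.11.

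Tfb2m, the initiation factor and paralog of Tfb1m, ranged from 9.98 to 10.13 in WT and from 9.99 to 10.10 in KO arrays. Its difference was -0.031 ± 0.050 (SE; interval -0.14 to 0.078), from its only probe set. The difference between the responses of these paralogs was not tested.

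Polrmt, the RNA polymerase whose promoter window holds the NRF1 motifs shown above, gave 9.63, 9.40, 9.55, 9.83 and 9.48 in WT and 9.64, 9.46, 9.59, 9.32 and 9.55 in KO mice. WT 4 was the highest array and KO 4 the lowest. The other 8 arrays, 4 of each group, lay between 9.40 and 9.64. The difference was -0.065 ± 0.087 (SE; interval -0.26 to 0.13; limma adjusted p = 0.944), and it was -0.003 without WT 4 and -0.017 without KO 4. Both Polrmt probe sets carry the suffix _a_at, for sets that match several transcripts of 1 gene, and the second gave -0.056 ± 0.088.

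Among the replication proteins, Polg, the catalytic subunit, ranged from 8.82 to 8.93 in WT and from 8.72 to 8.93 in KO arrays. Its difference was -0.064 ± 0.053 (SE; interval -0.18 to 0.053; limma adjusted p = 0.917), and its 2 other probe sets gave -0.10 and -0.025.

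Polg2, the accessory subunit that makes the polymerase processive, gave 7.02, 6.79, 6.78, 6.95 and 6.89 in WT 1 to WT 5. In KO 1 to KO 5 it gave 6.92, 6.98, 6.74, 6.56 and 6.23. KO 5 and KO 4 were the lowest arrays, and KO 1 and KO 2 lay among the WT arrays. The SD was 0.30 in KO and 0.10 in WT (n = 5 each), and this difference in spread was not tested. The difference in mean, from its only probe set, was -0.20 ± 0.13 (SE; interval -0.48 to 0.080; limma adjusted p = 0.914), and -0.086 without KO 5.

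Ssbp1, the single-strand binding protein, was the member with the narrowest error. It gave 10.57, 10.46, 10.53, 10.53 and 10.54 in WT and 10.54, 10.60, 10.57, 10.50 and 10.62 in KO mice. The 10 arrays spanned 0.16 log2 units, and the groups overlapped between 10.50 and 10.57. The difference was 0.040 ± 0.046 (SE; interval -0.061 to 0.14; limma adjusted p = 0.938). Of its 5 probe sets, 3 had means of 5.53, 4.85 and 3.38, below the array medians, and the other bright set (mean 9.40) gave -0.013 ± 0.060. With the mean of all its probe sets, Ssbp1 differed by -0.022.

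**Figure D2:**
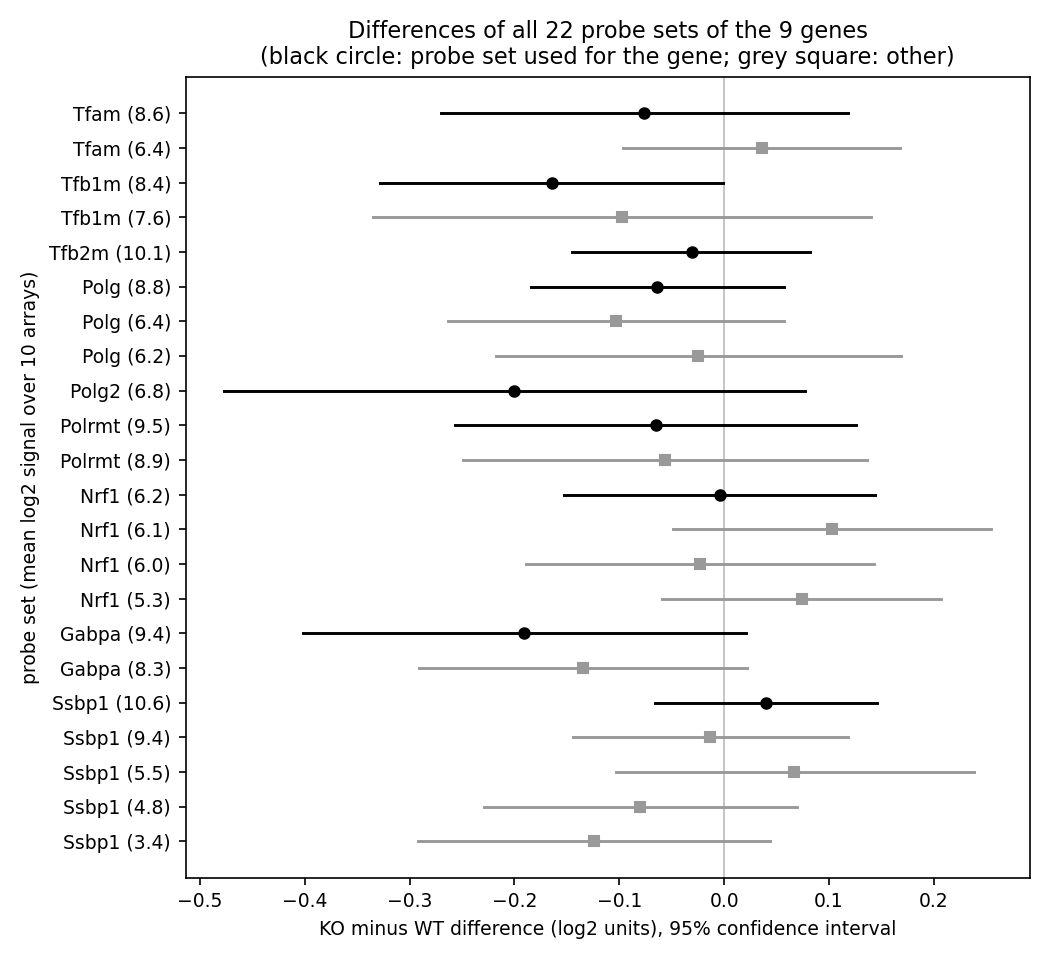
KO minus WT difference with its 95% confidence interval (horizontal axis, log2 units) for each of the 22 probe sets, labelled by gene and mean log2 signal; black circles are the probe sets used, grey squares the others. Of the 22, 17 lie below 0 and 5 above, where the median over all 34945 single-gene probe sets is -0.006. The interval of the Tfb1m set used, which ends at -0.001, is the only one of the 22 without 0.

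Over all 22 probe sets, 17 differences lay below 0 and 5 above, from -0.20 to 0.10. The median over all 34945 single-gene probe sets was -0.006, and at gene level 56.1% of all genes lay below 0. In the fit over all 34945 single-gene probe sets 0 were called, and the smallest adjusted p among the 22 was 0.885. Probe sets of opposite sign occurred in Tfam, Nrf1 and Ssbp1. The probe sets agreed in sign for Tfb1m, Polg, Polrmt and Gabpa. Probe sets of 1 gene share the same RNA and are not replicates.

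Single arrays held the extremes of several members. WT 4 was the highest of the 10 arrays in 5 of 9 members, namely Tfam, Tfb1m, Tfb2m, Polrmt and Gabpa, where it was the highest in 13.4% of all genes. KO 4 was the lowest in 3 of 9 members, Tfam, Tfb1m and Polrmt, where it was the lowest in 14.2% of all genes. All 9 members lay below their own 10-array mean in KO 4, by 0.14 log2 units on average (a mean deviation of -0.14). In the same array 55.1% of all genes lay below their mean. The members' mean deviation was 0.147 in WT 4 and -0.11 in KO 5, and lay between -0.034 and 0.055 in the other 7 arrays. Leaving out KO 4 brought the median difference of the members from -0.065 to -0.020, and leaving out WT 2 took it to -0.11. In KO 4 the muscle list mean was 10.63, the highest of the KO arrays, with KO 2 next at 10.6. In WT 4 it was 9.12. The other arrays ran from 5.3 (KO 3) to 11.39 (WT 2).

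**Figure D3:**
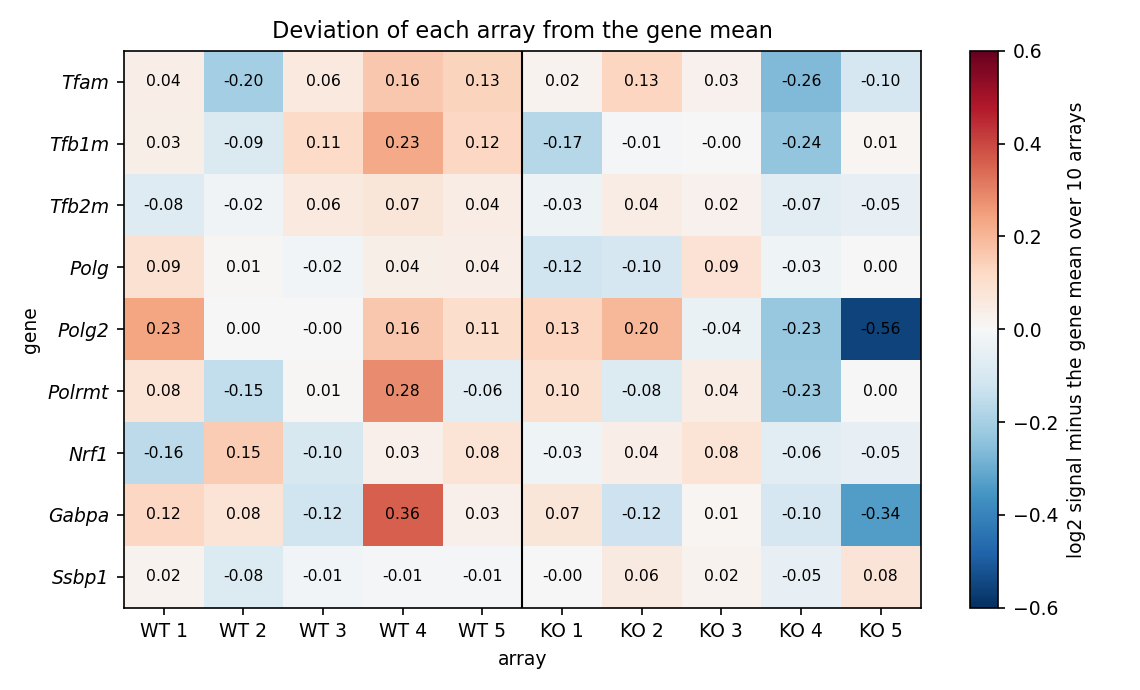
Log2 signal minus the mean of the gene over 10 arrays, for 9 genes (rows) in 10 arrays (columns, WT left of the line and KO right of it); red is above the mean and blue below. The KO 4 column is below 0 in all 9 rows, and the WT 4 column holds the highest value of 5 rows.

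No pair of members was correlated over the arrays beyond the adjustment. Over the 36 pairs of members, Pearson's r across the 10 arrays ran from -0.46 (Gabpa with Ssbp1) to 0.75 (Tfam with Tfb1m), with a median of 0.29, and 28 pairs were positive. The share of positive pairs among other genes was not counted, and pairs that share a gene are not independent. For Tfam with Tfb1m, r was 0.75 (permutation p = 0.013, adjusted p = 0.24 over 36 pairs) and Spearman's rho 0.81 (permutation p = 0.0074, adjusted p = 0.26). Without WT 2 and KO 4, the arrays farthest from the Tfam median, r was 0.52. With values centred within genotype it was 0.77 (permutation p = 0.021, adjusted p = 0.33). For Tfam with Tfb2m, r was 0.71 (permutation p = 0.022, adjusted p = 0.24) and rho 0.75 (permutation p = 0.017, adjusted p = 0.30), and without the same arrays r was 0.72. For Tfam with Polrmt, r was 0.66 (permutation p = 0.036, adjusted p = 0.26) and rho 0.47 (permutation p = 0.18, adjusted p = 0.64). That relation rests on WT 2 and KO 4, since without them r was 0.17.

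Tfam was also set against the replication proteins and the regulators. With Polg r was 0.08, with Polg2 0.62 and with Ssbp1 0.43 (adjusted permutation p = 0.99, 0.27 and 0.65), and without WT 2 and KO 4 these were -0.02, 0.79 and -0.56. For Tfam with Nrf1, r was 0.01 (permutation p = 0.98, adjusted p = 0.99) and rho 0.12 (permutation p = 0.76, adjusted p = 0.94), and without WT 2 and KO 4 r was 0.42. For Tfam with Gabpa, r was 0.37 (permutation p = 0.30, adjusted p = 0.73) and rho 0.22 (permutation p = 0.54, adjusted p = 0.94), and without the same arrays r was 0.65. Gabpa with Polg2 reached an r of 0.71 (permutation p = 0.026, adjusted p = 0.24) and a rho of 0.56 (permutation p = 0.095, adjusted p = 0.57), and 0.30 without KO 4 and KO 5, on which it rests. Ppargc1a, which encodes PGC-1 alpha, had r between -0.17 (Polg2) and 0.48 (Tfb1m) with the members, and 0 of 9 relations passed (smallest adjusted permutation p = 0.71). With the muscle list mean r lay between -0.36 (Polrmt) and 0.02 (Tfb1m), and 0 of 9 passed (smallest adjusted permutation p = 0.92). The muscle list itself had a lower mean in KO arrays. With values centred within genotype, r with it lay between -0.5 (Polrmt) and -0.04 (Ssbp1), below 0 in all 9 members. Of these centred relations, 0 of 9 passed (smallest adjusted permutation p = 0.6).

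The genes whose pattern over the 10 arrays was most like that of Tfam lay outside the member list. Among 11669 genes of at least median brightness, the highest r with Tfam was that of Gpbp1l1 (0.956), followed by Zbtb11os1 (0.95), Tmem192 (0.948), Nsun3 (0.945) and Pex19 (0.944). NSUN3 modifies a mitochondrial transfer RNA and PEX19 brings membrane proteins to peroxisomes. Nsun3 gave 8.0, 7.54, 8.15, 8.26 and 8.21 in WT and 7.97, 8.17, 7.79, 7.56 and 7.87 in KO mice, so it too was low in WT 2 and KO 4. Of the members, Tfb1m stood at rank 579 of those genes by r with Tfam, Tfb2m at 835, Polrmt at 1154 and Polg2 at 1484. Ssbp1 stood at 2982, Gabpa at 3558, Polg at 6068 and Nrf1 at 6592. Over all genes compared the median r was 0.10, and Polg (0.08) and Nrf1 (0.01) lay below it. These correlations are across arrays, describe these libraries and carry no test.

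Other genes of mitochondrial DNA maintenance and expression showed no called change either. The list of replication and nucleoid genes had 18 of 18 measured, with 10 lower, 8 higher, 0 called and a median of -0.007 log2 units. Its smallest unadjusted p was that of Rnaseh1, which removes RNA primers, at -0.15 ± 0.063 (SE; limma adjusted p = 0.914). Dna2, a helicase and nuclease, differed by -0.14 ± 0.060 and was dim, with a mean signal of 5.06. Clpx, the unfoldase of a matrix protease, differed by -0.12 ± 0.076, with a second probe set at 0.12. Top1mt, the mitochondrial topoisomerase, differed by 0.15 ± 0.095. Twnk, the replicative helicase Twinkle, differed by -0.045 ± 0.081, and by 0.017 without KO 4.

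Genes that supply mitochondrial nucleotides had 14 of 16 measured, with 8 lower, 6 higher, 0 called and a median of -0.021. That median turned to 0.044, over 10 genes, without _s_at, _x_at or _a_at probe sets. Mpv17, an inner membrane protein needed for DNA upkeep, differed by 0.096 ± 0.052, and its second probe set by -0.027. Tk2, the thymidine kinase of mitochondria, differed by 0.13 ± 0.098, Nme4, a nucleoside diphosphate kinase, by -0.065 ± 0.053, and Ak3, an adenylate kinase isozyme of the matrix, by 0.070 ± 0.062.

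Genes listed for transcription and termination, 7 of 8 measured, all had a lower mean in KO arrays, where 56.1% of all genes did. In this list 0 were called and the median was -0.082. Mterf1a, a termination factor, gave 6.19, 5.97, 6.41, 6.55 and 6.35 in WT and 6.21, 6.16, 6.44, 5.6 and 5.88 in KO mice, a difference of -0.24 ± 0.15. KO 4 and KO 5 were its low arrays, and without KO 4 the difference was -0.123. Mterf2, of the same family, differed by -0.18 ± 0.10 and Mrpl12, a ribosomal protein known to bind POLRMT, by -0.060 ± 0.056. Cdk5rap1, which modifies mitochondrial transfer RNAs and so does not act in transcription, differed by -0.25 ± 0.13 and had its highest value in WT 4 (8.53), where the other arrays lay between 7.68 and 8.0. Without WT 4 its difference was -0.126.

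Genes of mitochondrial RNA processing and decay had 29 of 29 measured, with 24 lower (82.8%, against 56.1% of all genes), 5 higher, 0 called and a median of -0.070. Elac2, which cuts the 3′ ends of transfer RNAs, differed by -0.13 ± 0.062, with its 2 other probe sets between -0.12 and -0.11. Mrm3, a ribosomal RNA methyltransferase, differed by -0.13 ± 0.065, Fastkd2, an RNA-binding protein of mitochondrial RNA granules, by -0.17 ± 0.098 (its 3 other probe sets between -0.16 and 0.058), and Pus1, a pseudouridine synthase, by -0.082 ± 0.054. The list median was -0.038 without WT 4. The list mean was highest in WT 4 (9.0) and lowest in KO 4 (8.76), the arrays that also held the highest and lowest signals of Tfam, Tfb1m and Polrmt.

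**Figure D4:**
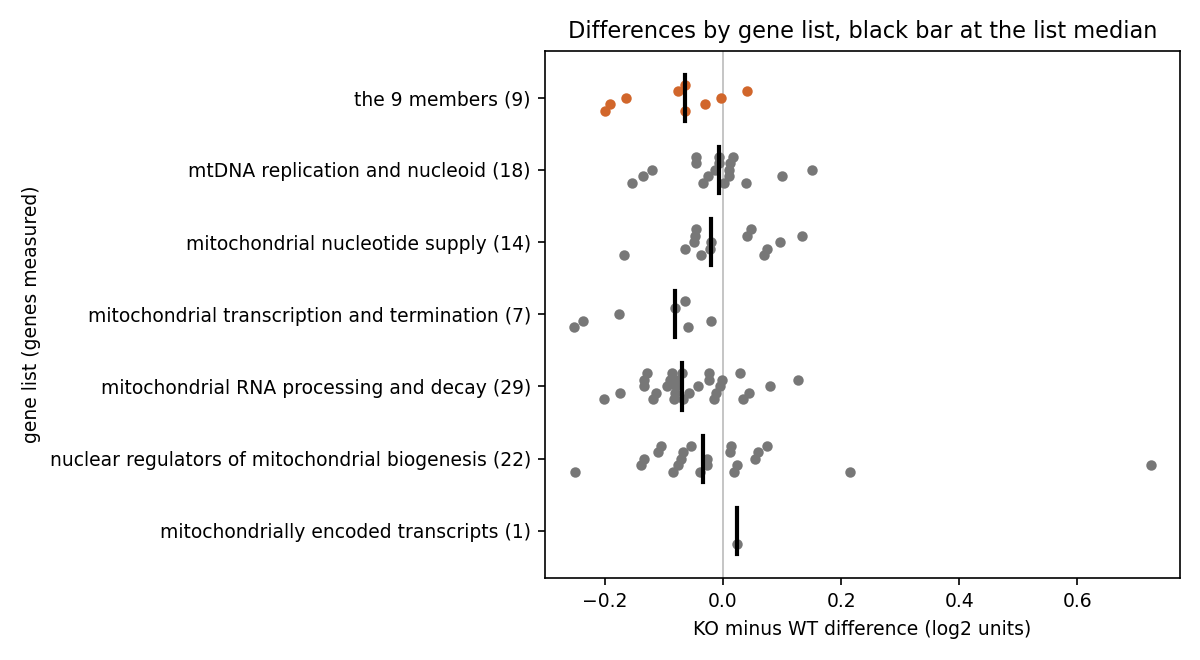
KO minus WT difference (horizontal axis, log2 units) of each measured gene in the 9 members and in 6 lists of related genes, with the number measured in brackets and a black bar at the median. Medians lie between -0.082 (transcription and termination) and 0.023 (1 mitochondrially encoded transcript), and the point farthest right is Myc.

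Nuclear regulators of mitochondrial biogenesis had 22 of 23 measured, with 13 lower, 9 higher, 0 called and a median of -0.034, or 0.011 without WT 4. Myc, a growth-promoting transcription factor, gave 6.60, 7.09, 6.04, 6.94 and 6.4 in WT and 6.87, 6.55, 7.80, 8.14 and 7.32 in KO mice, a difference of 0.73 ± 0.29 (SE; interval 0.079 to 1.37; limma adjusted p = 0.914). KO 3, KO 4 and KO 5 lay above every WT array, and KO 1 and KO 2 lay inside the WT range. Sp1, a general promoter-binding factor, differed by -0.25 ± 0.11, with its 2 other probe sets at -0.019 and 0.16. Hcfc1, a partner of GABPA at promoters, differed by -0.14 ± 0.071 and Pprc1, a relative of PGC-1 alpha, by 0.22 ± 0.13.

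Ppargc1a itself gave 8.18, 8.19, 8.49, 8.45 and 9.22 in WT and 8.43, 8.25, 8.53, 8.15 and 8.74 in KO mice. WT 5 was the highest array, and the rest overlapped. The difference was -0.085 ± 0.19 (SE; interval -0.50 to 0.32; limma adjusted p = 0.959), and 2 of its 4 other probe sets had the opposite sign, over a range of -0.25 to 0.24. Without WT 5 it was 0.093. Ppargc1b, its paralog, differed by 0.059 ± 0.094, Esrra, a nuclear receptor that works with both, by -0.11 ± 0.10, and Gabpb1, which joins GABPA in the active complex, by 0.011 ± 0.066.

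Of the mitochondrial genome's own transcripts, 1 of 15 listed was measured by a named single-gene probe set. That transcript, ND5 (a complex I subunit), lay between 14.36 and 14.48 in WT and between 14.36 and 14.50 in KO arrays. It differed by 0.023 ± 0.050 (SE; interval -0.085 to 0.13; limma adjusted p = 0.958). All its values lay above those of Ucp1 and Cidea, and whether a change can show at such brightness was not tested. The amount of mitochondrial DNA was not measured.

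With the muscle list mean as a covariate, all differences of the members kept their sign and the median was -0.11; with KO 1, KO 3 and WT 5 left out it was -0.092, and 0 members were called in either fit. The difference in the Pcx measure moved with genotype, and its part in the members' differences was not tested.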

How the data were processed

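Total RNA of brown adipose tissue from 10 mice was hybridised as biotinylated cRNA to Affymetrix arrays, per the labels' protocols, 1 array per sample. The deposited values are log2 signals that the authors made with RMA, per the submitters' processing notes (software and settings not given in the sources used here). Because RMA equalises arrays, a shift common to most transcripts is removed, and no detection call is given. Of 45101 probe sets, 64 were controls, 34945 had 1 gene in the platform annotation, 932 several and 9160 none; the last 2 kinds were left out. Of those with 1 gene, 34741 were matched to RefSeq (GRCm38.p6) by gene ID. The number of arrays limits the precision. Nothing says how mice were drawn, so each p-value only sets a difference or correlation against the variation among these samples.

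Each of 18194 genes was represented by its probe set of highest 10-array mean. Differences, KO minus WT, come from limma 3.58.1 in R 4.3.3 (lmFit, then eBayes), two-sided, without covariates, with Benjamini-Hochberg adjustment over all genes; intervals are 95% confidence intervals. The fit was tested on simulated data with independent noise in each gene and shifts larger than any difference of the members. That test does not gauge whether changes of the members' size would be called. Correlations used 100000 permutations, adjusted within each family of relations. Named genes are the 9 members, Sirt3, the 4 genes of smallest unadjusted p of each list (all of a list with fewer than 6 measured), 6 regulators chosen by name (Ppargc1a, Ppargc1b, Pprc1, Esrra, Gabpb1 and Twnk), and the 5 genes most like Tfam, skipping unnamed sequences. Members, lists and alternatives were chosen with earlier results of these data known. The lists gave these counts of genes lower in KO beside those measured: endothelial cell 2 of 8, macrophage 4 of 7, fibroblast 5 of 6, lymphocyte 3 of 5, red blood cell 1 of 3, Schwann cell and nerve 3 of 3, white adipocyte 3 of 6 and brown adipocyte 8 of 10, with 0 called in each. Figures were drawn with matplotlib 3.10.9.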

Additional observations from a re-analysis of the deposited data

Results flagged for a closer look

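Of 82 groups of 5 arrays (41 named genes), 1 held an array far from the other 4 by Dixon's measure, whose critical value is passed in about 1 in 20 groups. Dna2, a helicase and nuclease of the replication list, was 4.95 in WT 4, where the other 4 WT arrays lay between 5.14 and 5.18.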

How the results depend on the processing

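Under 20 alternatives (further quantile normalization, centring, a filter on dim genes, a variance trend, array weights, other choices of probe set, the replicate block, the muscle covariate, 3 arrays left out and each array left out in turn), 0 genes, 0 members and 0 genes of the lists were called in each. Between 6 and 8 members were lower; the 6 came without _s_at, _x_at or _a_at probe sets, where Polrmt has no value. The members' median lay between -0.114 and -0.020, and between -0.110 and -0.020 with single arrays left out. Tfam, Tfb1m, Tfb2m, Polg, Polg2, Polrmt and Gabpa kept their sign in every alternative that gave a value. Part of this was fixed in advance. The variance trend and the replicate block cannot change a difference, and the filter on dim genes cannot for the genes it keeps. Neither can the other choices of probe set where a gene keeps the same probe set. Nrf1 turned to 0.017 with array weights, 0.037 with the mean of all probe sets, 0.103 without suffixed probe sets, and to between 0.001 and 0.033 without 1 of WT 2, WT 4, WT 5, KO 1, KO 4 or KO 5, in a range of -0.044 to 0.033 over all single arrays left out. With the mean of all probe sets Ssbp1 was -0.022. Without WT 5, KO 1 and KO 3, Ak3 was -0.011, Ppargc1a 0.054, Ppargc1b -0.069 and ND5 -0.021. With single arrays left out, Ppargc1a ran from -0.168 to 0.093 (without WT 5), Twnk from -0.080 to 0.017 (without KO 4) and Gabpb1 from -0.029 to 0.059, below 0 without WT 1, KO 4 or KO 5 (-0.009, -0.029 and -0.005). The causes were not tested. Genes with an unadjusted p under 0.05 numbered 1570 with the muscle covariate and 1418 without WT 2, against 851. Deviations from the group means correlated between same-numbered arrays at -0.395 to 0.236. No WT array correlated best with the KO array of its own number. These correlations alone cannot settle whether the replicate numbers pair the mice. With the replicate block the members' differences (median -0.065) and that of Sirt3 (0.19) were the same. This holds by design, since each number has 1 WT and 1 KO array. Under the block, 736 genes had an unadjusted limma p under 0.05.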
